A study of Homo sapiens with 6 samples.

Results

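The 33 genes described here encode the enzymes of cholesterol synthesis, the SREBP system that regulates them, and the enzymes that make, elongate and desaturate fatty acids. They were chosen by name from knowledge of the pathway, with earlier results of these data already known. Every probe set annotated to them was read. Of the 33 genes, 30 had at least 1 probe set of their own, 66 probe sets in all, among the 19775 genes and 54675 probe sets of the array. CYP51A1 and FADS1 were represented only by 5 probe sets annotated to them together with another gene, and FDFT1 was not analysed here because no probe set was matched to it.

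RNA came from IGROV1, an established human ovarian carcinoma cell line grown in medium with fetal bovine serum. The cells were stained with Hoechst 33342, a DNA-binding dye, and sorted into a side population (SP), which keeps little dye because transporters export it, and cells outside that gate (non-SP). There were 3 SP and 3 non-SP samples, each on 1 array, with no treatment or genetic change beyond staining and sorting, which both groups share. The labels name biological replicates without stating if separate cultures were used. The spread behind each p-value is therefore that of the 6 samples, pulled by the statistical fit towards a typical spread over all genes. Part of it may be technical.

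Cholesterol is built from acetyl-CoA through mevalonate, isoprenoid diphosphates, squalene and a series of sterol intermediates. SREBP transcription factors, encoded by SREBF1 and SREBF2, are made as membrane precursors. SCAP escorts them from the endoplasmic reticulum for cleavage when sterols are scarce, and the INSIG proteins hold SCAP back when sterols are plentiful. In carcinoma cells these pathways supply membranes, and the stearoyl-CoA desaturase SCD has been studied in ovarian cancer cells with stem-like properties.

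SREBPs bind sterol regulatory elements and often act together with the factor NF-Y, which binds CCAAT boxes. Promoter stretches are shown for the 5 genes whose SP and non-SP values did not overlap and that hold more than 1 CCAAT box, and for SREBF2, the 1 promoter with an exact sterol regulatory element. They are RefSeq sequences of GRCh38.p14, printed 5′ to 3′ on the gene's strand, with capitals marking CCAAT or its reverse complement ATTGG. In SREBF2 the first run of capitals, of 10 bases, is the sterol regulatory element as searched.
STARD4 (chr5:111512646-111512711, minus strand): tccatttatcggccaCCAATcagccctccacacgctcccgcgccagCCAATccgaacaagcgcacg
MVK (chr12:109573569-109573767, plus strand): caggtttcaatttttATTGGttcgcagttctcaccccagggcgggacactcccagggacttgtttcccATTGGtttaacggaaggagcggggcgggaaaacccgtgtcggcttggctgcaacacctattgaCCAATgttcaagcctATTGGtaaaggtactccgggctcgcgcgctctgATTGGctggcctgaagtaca
EBP (chrX:48521602-48521797, plus strand): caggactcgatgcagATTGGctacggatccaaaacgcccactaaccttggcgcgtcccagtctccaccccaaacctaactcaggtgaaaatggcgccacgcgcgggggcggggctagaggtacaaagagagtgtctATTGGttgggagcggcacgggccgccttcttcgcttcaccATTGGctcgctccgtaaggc
DHCR7 (chr11:71448422-71448502, minus strand): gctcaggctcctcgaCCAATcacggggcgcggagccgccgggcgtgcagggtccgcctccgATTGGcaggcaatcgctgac
SCD (chr10:100346989-100347066, plus strand): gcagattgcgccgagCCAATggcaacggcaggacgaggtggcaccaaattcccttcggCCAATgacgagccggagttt
SREBF2 (chr22:41832956-41833018, plus strand): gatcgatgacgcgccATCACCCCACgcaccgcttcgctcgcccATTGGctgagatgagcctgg
All 6 stretches lie upstream of the annotated start site, and in SREBF2 the element begins 134 bases and the CCAAT box 106 bases before it. In windows of 300 bases, from 250 before to 50 after the start site, CCAAT on either strand was present in 19 of 29 member promoters (65.5%) and in 35.7% of all 27305 promoters. At least 2 such boxes were present in 13 of 29 (44.8%) and in 11.3%. The E-box CACGTG was present in 5 of 29 (17.2%) and in 7.43%. The exact element of 10 bases was found on either strand in 1 of 29 and in 13 of all promoters (0.0476%). Its looser core TCACNCCAC, which the element contains, was found in that same 1 of 29 (3.45%) and in 1.15% of all promoters. These matches describe letters in a window and not sites bound in these cells.

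None of the 30 measured genes passed the threshold in SP against non-SP cells, and their measured differences were small. The lowest difference was -0.49 (TM7SF2) and the highest 0.67 (STARD4) on the log2 scale, SP minus non-SP. For 29 of the 30 genes (96.7%) the measured difference was smaller than 0.5 in size, against 91.8% of all genes. The median size of the difference, however, was 0.16 for these genes and 0.13 for all genes. The median over the 30 genes was -0.06, beside -0.02 over all genes, and 12 were above 0 and 18 below (40% above, against 45.3% of all genes).

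In limma's fit over all genes, with Benjamini-Hochberg adjustment and a threshold of 0.05, 0 of 30 genes were called, where 0.00506% of all genes (1 of 19775) were. Adjusted p lay between 0.611 and 0.998. At an unadjusted p under 0.05 there were 1 gene with a higher mean in SP cells, STARD4 (background 3.07%), and 2 with a lower one, EBP and DHCR7 (background 3.71%). The groups did not overlap for 6 of the 30 (20%), against 11.9% of all genes. Of these 6, 1 was higher (background 4.78%) and 5 lower in SP cells (background 7.1%).

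The fit limits how large a difference could have gone undetected. For 27 of the 30 genes (90%) the whole 95% interval lay within 1 log2 unit of 0, that is within a factor of 2 either way, against 84% of all genes. The exceptions were LSS and TM7SF2, whose intervals reached below -1, and STARD4, whose interval reached above 1. The median standard error was 0.17 for these genes and 0.17 for all genes. These intervals are those of the brightest probe set of each gene. In a fit over all probe sets, 58 of the 66 (87.9%) had an interval within 1 log2 unit of 0, against 79.9% of all probe sets. Less bright probe sets of MVK (0.03 to 1.66), LSS, ELOVL5 and NSDHL had intervals that reached above 1. One of SQLE reached below -1 (-1.52 to 0.19). All 66 probe sets lay above the mean of the array's negative control probe sets, 2.82 to 2.96 on the log2 scale, on 6 of 6 arrays. So did 35256 of the 41091 probe sets with 1 gene symbol, so the bar is low. The median over all probe sets was 5.59 to 5.64 per array, and an ELOVL5 probe set measured only 3.75 to 4.26.

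**Figure D1:**
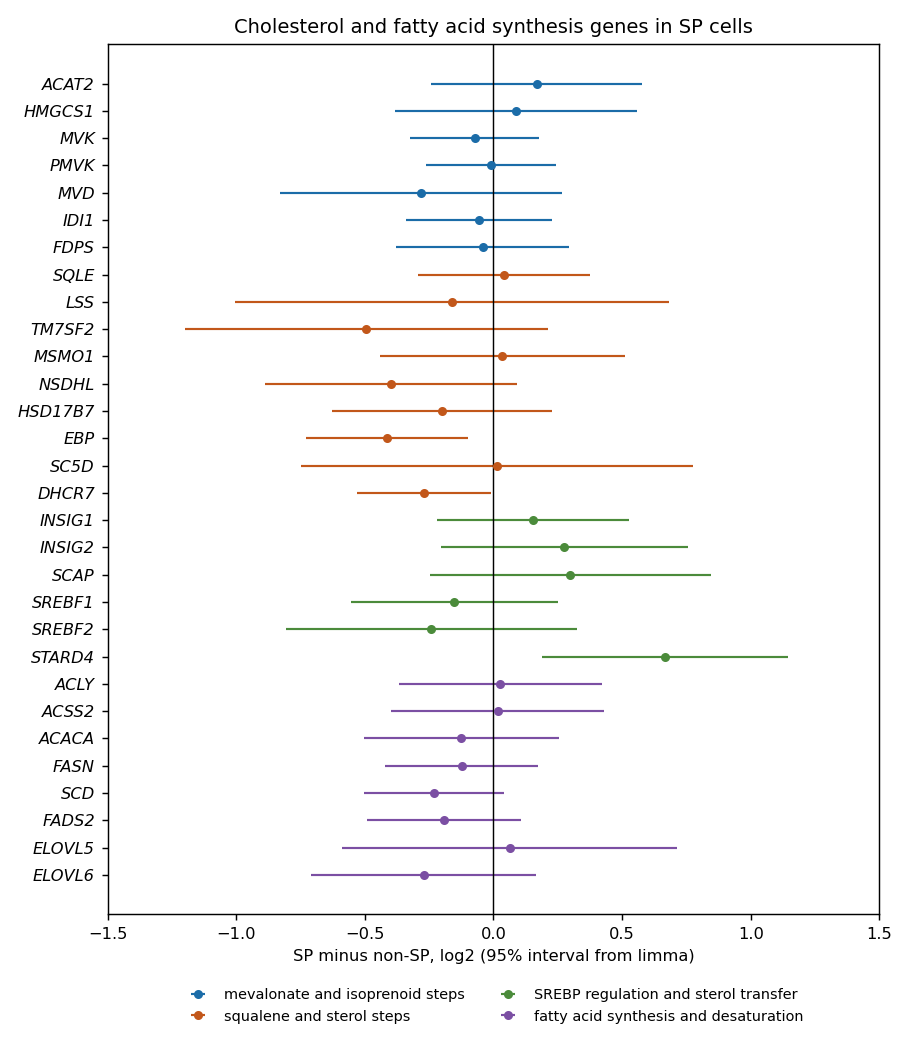
Measured difference (SP minus non-SP, log2) of the 30 genes, as points with limma's 95% interval, coloured by role. The points lie between -0.49 and 0.67, and the intervals of STARD4, EBP and DHCR7 are the ones that do not include 0.

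The arrays did not differ by the sort alone. The first principal component of all other genes held 45.7% of the variance and parted the arrays into set A (SP replicate 1, non-SP replicates 1 and 3) and set B (SP replicates 2 and 3, non-SP replicate 2). The ACTB 3′ minus 5′ control signal, a measure of RNA integrity and amplification, was 2.02 to 2.29 in set A and 2.46 to 2.55 in set B. Because the sets were read from the data they are no groups of the study, and differences within each set, which have no test, are given beside the pooled ones. ABCB1, a known exporter of the dye, was 8.61 to 10.22 in SP and 4.26 to 5.81 in non-SP samples, without overlap (limma adjusted p = 0.12). ABCG2, another known exporter, differed by -0.18 (SE 0.42, limma adjusted p = 0.972) with overlapping groups. All 7 epithelial and ovarian markers (such as EPCAM and PAX8) exceeded the negative control mean on each of the 6 arrays, with mean levels of 10.58 to 10.66 in SP and 10.42 to 10.56 in non-SP samples. So did 2 of 4 leukocyte markers (CD14 and CD79A), 3 of 4 fibroblast markers and 4 of 4 endothelial markers. CD3E, a T cell marker, was above it on 0 arrays, and PTPRC and LUM on 1 array each. Mean levels in SP and non-SP samples were 4.02 to 4.20 and 3.86 to 4.13 for the leukocyte list, 4.39 to 4.57 and 4.40 to 4.51 for the fibroblast list, and 5.09 to 5.20 and 5.26 to 5.32 for the endothelial list. The epithelial list was higher, and the endothelial list lower, in every SP sample than in any non-SP sample. Within the epithelial list KRT7 differed by 0.79 (SE 0.18), CDH1 by 0.79 (SE 0.31) and KRT8 by -0.71 (SE 0.22). Their limma adjusted p was 0.451, 0.709 and 0.611. EPCAM, KRT18, KRT19 and PAX8 differed by -0.15 to 0.06. PTPRC differed by 0.44 (SE 0.28, limma adjusted p = 0.867), and the part of these markers in the differences below was not tested.

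The 7 genes of the early pathway, from acetyl-CoA to farnesyl diphosphate, had differences from -0.28 to 0.17 with a median of -0.04. Of these, 2 were above 0 and 5 below, and the interval of every one, for its brightest probe set, lay within 1 log2 unit of 0. HMGCS1, the synthase that forms HMG-CoA and a standard SREBP target, measured 10.05, 9.37 and 9.64 in SP replicates 1 to 3 and 9.71, 9.43 and 9.66 in non-SP replicates 1 to 3. The groups overlapped, with both the highest and the lowest value in SP samples. Its difference was 0.09 (SE 0.20, 95% interval -0.38 to 0.56, limma adjusted p = 0.971). The other HMGCS1 probe set differed by -0.20.

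ACAT2, a cytosolic thiolase that condenses acetyl-CoA, had the highest difference of these genes. Its values were 7.31, 7.41 and 7.74 in SP and 7.17, 7.22 and 7.56 in non-SP samples, which overlap, for a difference of 0.17 (SE 0.17). MVD, the decarboxylase that forms isopentenyl diphosphate, had the lowest. It measured 6.28, 5.82 and 5.89 in SP and 6.70, 6.18 and 5.95 in non-SP samples, a difference of -0.28 (SE 0.23) with overlapping groups. It was -0.07 without non-SP replicate 1, whereas leaving out non-SP replicate 3 gave -0.45 and leaving out SP replicate 1 gave -0.42. Mevalonate kinase, MVK, had values of 6.52, 6.51 and 6.44 in SP and 6.52, 6.56 and 6.61 in non-SP samples. These do not overlap, but the nearest values of the 2 groups both round to 6.52 and the difference was -0.07 (SE 0.10). Another MVK probe set differed by 0.84 (SE 0.34, limma adjusted p = 0.714 over all probe sets), with overlapping groups, so the 4 MVK probe sets ranged from -0.32 to 0.84. PMVK, IDI1 and FDPS, which phosphorylate mevalonate phosphate, isomerise isopentenyl diphosphate and build farnesyl diphosphate, had differences between -0.06 and -0.01.

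The 9 measured genes that act from squalene to cholesterol had a median of -0.20, with 3 above 0 and 6 below. That median was -0.30 to -0.05 with 1 sample left out, nearest to 0 without SP replicate 1, where it was -0.046, and -0.11 without non-SP replicate 2. It was -0.059 with the mean of each gene's probe sets and -0.097 with array weights. EBP, the sterol isomerase that shifts a double bond in the ring system, measured 8.69, 8.84 and 8.55 in SP and 9.20, 9.15 and 8.97 in non-SP samples. Every SP value lay below every non-SP value, and the difference was -0.41 (SE 0.13, 95% interval -0.73 to -0.10), or 0.751 of the non-SP level. It had a limma p of 0.0178 before and 0.612 after adjustment. The difference was -0.39 within array set A and -0.46 within set B. All 4 EBP probe sets differed in the same direction, from -0.41 to -0.07, and 2 of them had groups that did not overlap.

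DHCR7, the reductase of the last step in one branch of the pathway, measured 7.25, 7.40 and 7.41 in SP and 7.62, 7.64 and 7.60 in non-SP samples. The groups did not overlap, and the 3 non-SP values were close together (SD 0.02). The difference was -0.27 (SE 0.11, 95% interval -0.53 to -0.01, limma adjusted p = 0.721), and it was -0.36 and -0.24 within array sets A and B. The other DHCR7 probe set differed by 0.15, so the 2 probe sets of this gene disagree in sign.

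TM7SF2, a sterol reductase of the endoplasmic reticulum, had the lowest difference of all 30 genes. It measured 6.06, 5.46 and 5.17 in SP and 6.53, 5.74 and 5.91 in non-SP samples, with overlap because SP replicate 1 lay above non-SP replicates 2 and 3. Its difference of -0.49 (SE 0.30, limma adjusted p = 0.856) had an interval of -1.20 to 0.21. SQLE, squalene epoxidase and a rate-limiting enzyme of this part, measured 9.15, 9.14 and 8.77 in SP and 8.98, 8.97 and 8.98 in non-SP samples. The non-SP samples lay between the SP samples, and the difference was 0.04 (SE 0.14, interval -0.29 to 0.38). Its 4 probe sets ranged from -0.67 to 0.04.

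The remaining genes of this part were LSS, which closes the sterol ring, MSMO1 and NSDHL, which act in removing methyl groups, HSD17B7, a sterol ketoreductase, and SC5D, a sterol desaturase. Their differences lay between -0.40 (NSDHL, SE 0.20) and 0.03 (MSMO1, SE 0.20), and the groups of each overlapped. NSDHL's 2 probe sets differed by -0.40 and 0.36, and the 3 of LSS from -0.16 to 0.57. The HSD17B7 probe set, like those used for IDI1 and FASN, is of the _x_at type, whose probes can also bind transcripts of other genes. The 2 probe sets annotated to both CYP51A1 and LRRD1 differed by 0.02 and -0.02 and were not assigned to either gene.

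**Figure D2:**
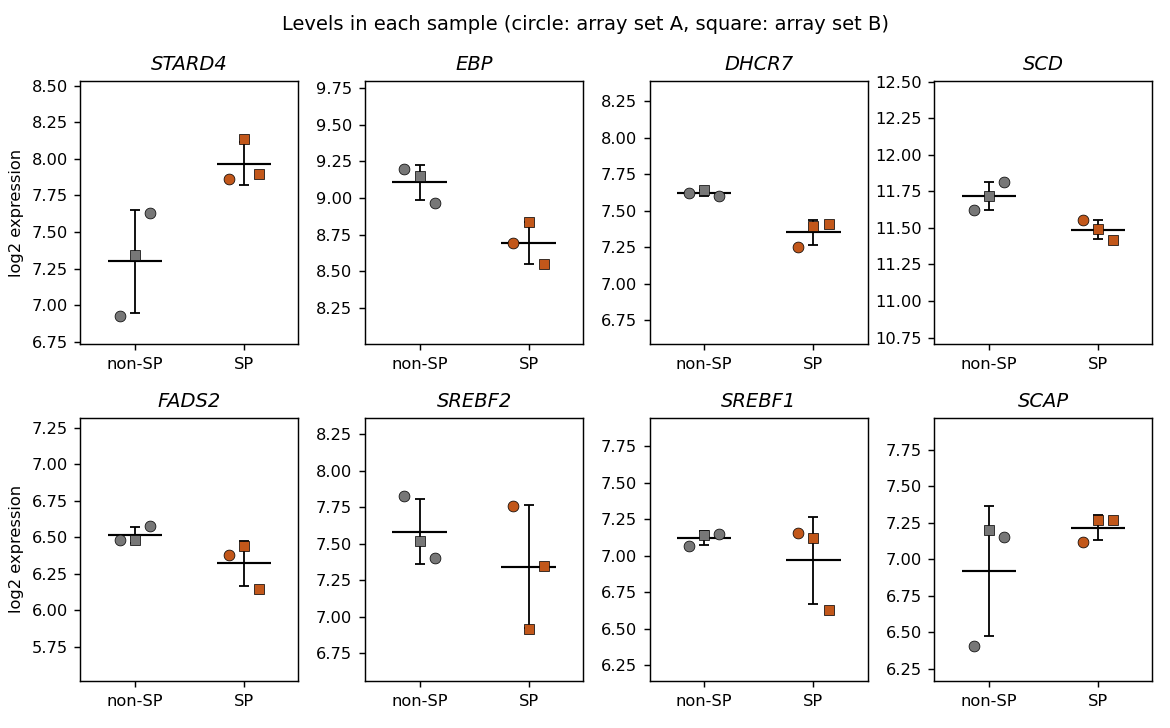
Log2 expression in each sample for 8 of the genes, with non-SP samples in grey and SP samples in orange, circles for array set A and squares for set B, lines for group means and bars for 1 SD (n = 3). Every panel spans the same log2 range, and the groups are separate for STARD4, EBP, DHCR7, SCD and FADS2 and overlap for SREBF2, SREBF1 and SCAP.

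The 6 genes of SREBP regulation and sterol transfer had a median of 0.21, with 4 above 0 and 2 below. STARD4, a cytosolic protein that carries cholesterol between membranes and is itself an SREBP target, measured 7.86, 8.13 and 7.90 in SP and 6.93, 7.34 and 7.63 in non-SP samples. The lowest SP value exceeded the highest non-SP value, and the non-SP samples were the more spread out (SD 0.35 against 0.15). Its difference was 0.67 (SE 0.20), or 1.59-fold with a 95% interval of 1.14 to 2.21, the highest of the 30 genes. The limma p was 0.0134 before and 0.611 after adjustment. Within array sets A and B the difference was 0.58 and 0.68. STARD4 had 1 probe set, so no other probe set bears on it.

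SREBF2, whose product mainly drives cholesterol genes, measured 7.76, 6.92 and 7.35 in SP and 7.83, 7.52 and 7.40 in non-SP samples. The groups overlapped, with replicate 1 the highest of each, and the difference was -0.24 (SE 0.24, interval -0.81 to 0.32, limma adjusted p = 0.922). Within array sets A and B it was 0.15 and -0.39, opposite in sign, and it was -0.03 without SP replicate 2 and -0.45 without SP replicate 1. SREBF1, whose product mainly drives fatty acid genes, measured 7.15, 7.12 and 6.63 in SP and 7.07, 7.14 and 7.15 in non-SP samples. SP replicate 3 was the low value and the other 5 lay close together. Its difference was -0.15 (SE 0.17, interval -0.55 to 0.25), and its other probe set differed by -0.16.

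SCAP, the SREBP escort, measured 7.12, 7.27 and 7.27 in SP and 6.41, 7.20 and 7.15 in non-SP samples, where non-SP replicate 1 stood apart from the other 5 values. The difference was 0.30 (SE 0.23, limma adjusted p = 0.894) and was 0.04 without that sample. INSIG1, the retention protein whose transcript is a sensitive SREBP target, measured 9.91, 9.87 and 9.96 in SP and 9.46, 9.90 and 9.92 in non-SP samples. Here too non-SP replicate 1 was the single low value, and the difference of 0.15 (SE 0.16) was 0.00 without it. Its 3 probe sets ranged from 0.04 to 0.16. INSIG2, a second retention protein, had a difference of 0.27 (SE 0.20) with overlapping groups. The median of 0.21 over these 6 genes rests in part on single samples: it was 0.02 without non-SP replicate 1 and 0.33 without non-SP replicate 2.

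The 8 measured genes of fatty acid synthesis and desaturation had a median of -0.12, with 3 above 0 and 5 below. For the brightest probe set of each, the interval lay within 1 log2 unit of 0. Another ELOVL5 probe set differed by 0.49, with an interval of -0.26 to 1.24. SCD, which makes monounsaturated from saturated fatty acids, measured 11.55, 11.49 and 11.42 in SP and 11.62, 11.72 and 11.82 in non-SP samples. The groups did not overlap, and the difference was -0.23 (SE 0.11, 95% interval -0.50 to 0.04), or 0.852 of the non-SP level. It had a limma p of 0.0845 before and 0.79 after adjustment. The difference was -0.17 within array set A and -0.26 within set B. The 4 SCD probe sets differed from -0.37 to -0.20, all in the same direction, and the groups overlapped in the other 3.

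FADS2, a desaturase that acts on polyunsaturated fatty acids, measured 6.38, 6.44 and 6.15 in SP and 6.48, 6.48 and 6.58 in non-SP samples. These do not overlap, and the difference was -0.19 (SE 0.12, limma adjusted p = 0.873), while its other probe set differed by 0.06. FASN, the multifunctional enzyme that builds palmitate, measured 6.92, 6.85 and 6.81 in SP and 6.96, 7.15 and 6.85 in non-SP samples, which overlap. Its difference was -0.12 (SE 0.12, interval -0.42 to 0.17), and its other probe set differed by 0.13.

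ELOVL6, which elongates palmitate, had the lowest difference of this part. It measured 10.81, 10.59 and 10.70 in SP and 11.09, 10.61 and 11.22 in non-SP samples, a difference of -0.27 (SE 0.18) with overlap at non-SP replicate 2. ELOVL5, which elongates polyunsaturated fatty acids, had the highest. It measured 9.66, 10.31 and 10.21 in SP and 9.50, 10.34 and 10.15 in non-SP samples, where replicate 1 was the low sample of both groups and the difference was 0.06 (SE 0.27). ACLY and ACSS2, which supply cytosolic acetyl-CoA from citrate and acetate, and ACACA, which makes malonyl-CoA, had differences of 0.03, 0.02 and -0.13 with overlapping groups. The 3 probe sets annotated to both FADS1 and MIR1908 differed by 0.09, -0.15 and 0.20 and were not assigned to either gene.

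Where a gene had several probe sets, they often disagreed at this size of difference. Of 19 such genes, 8 had all probe sets on 1 side of 0: INSIG1, ACLY and ELOVL5 above and EBP, SREBF1, ACACA, SCD and ELOVL6 below. The other 11 had probe sets of both signs. Over the 66 probe sets 28 differences were above 0 and 38 below, and the groups did not overlap in 7 (10.6%), against 12.1% of all probe sets. Counted by probe set, the share without overlap was thus near the background, whereas it was above it with 1 probe set per gene.

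**Figure D3:**
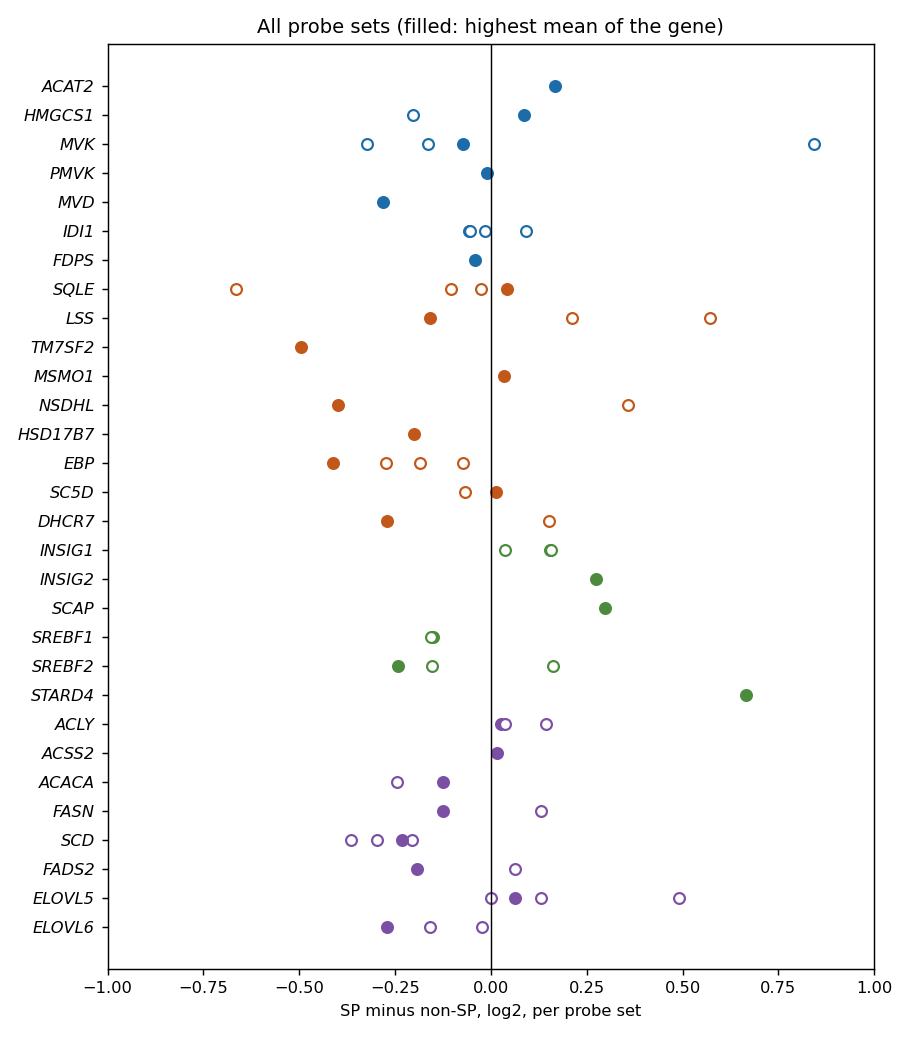
SP minus non-SP difference (log2) of each of the 66 probe sets, with the probe set of the highest mean filled and the others open, coloured by role as in the plot of differences with intervals. The 4 probe sets of EBP and of SCD all lie below 0, and MVK spans -0.32 to 0.84.

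Within the array sets, the difference had the same sign in both for 21 of the 30 genes (70%), against 56.5% of all genes. Among the genes from squalene to cholesterol this held for 8 of 9, with medians of -0.13 in set A and -0.33 in set B. The shared sign was not always that of the pooled difference. MSMO1, SC5D, ACSS2 and ELOVL5 were negative in both sets but positive when pooled (0.03, 0.01, 0.02 and 0.06). Over all 30 genes the medians were -0.05 and -0.10, beside -0.01 and -0.04 over all genes. Set A has 1 SP sample and set B has 1 non-SP sample, so each within-set value rests on a single sample on one side.

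**Figure D4:**
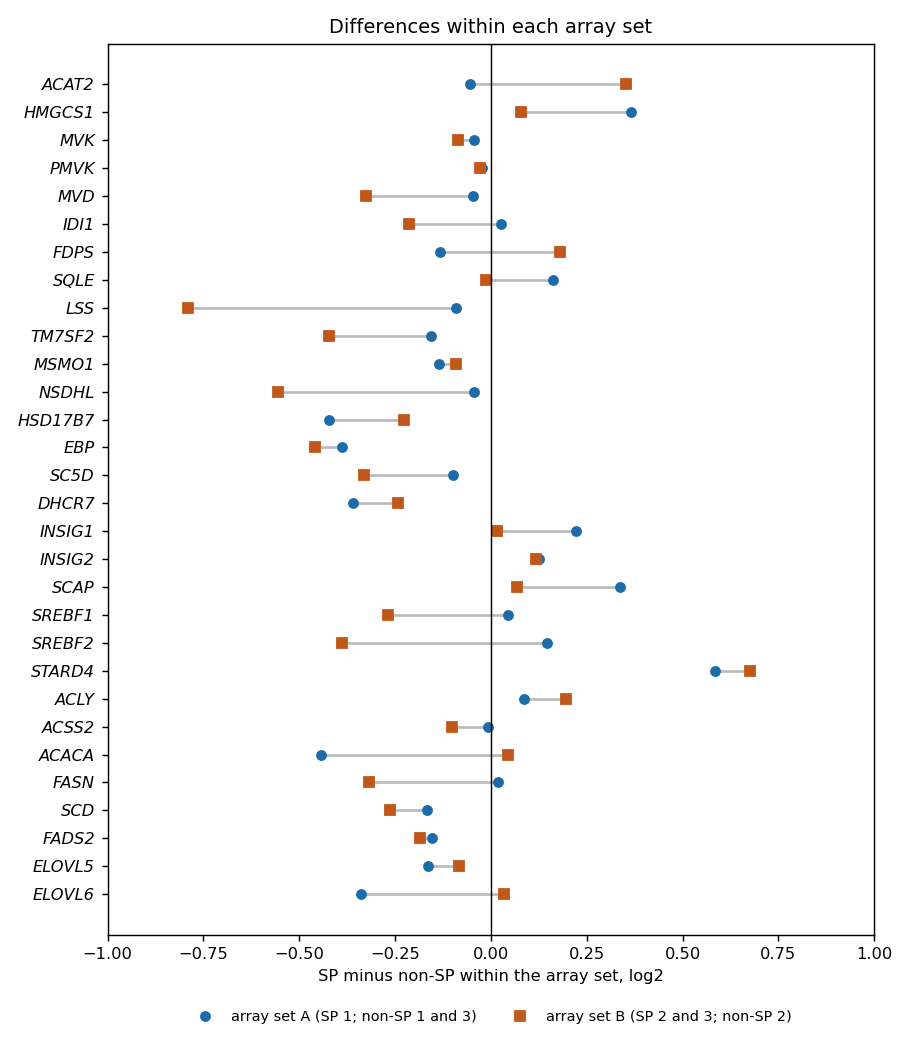
SP minus non-SP difference (log2) of the 30 genes within array set A (blue circles) and array set B (orange squares), joined by a grey line. EBP, DHCR7, SCD, FADS2 and STARD4 lie on the same side of 0 in both sets, whereas SREBF2 is at 0.15 in set A and -0.39 in set B.

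Other genes of lipid metabolism came from lists chosen for their function, with earlier results of these data known. They also held no call: 0 of 72 measured genes passed limma's adjusted threshold. At an unadjusted limma p under 0.05, 1 was above 0 (background 3.07%) and 3 below 0 (background 3.71%), shares near those of all genes. Among 11 of 15 listed genes of other sterol and isoprenoid synthesis, 6 were above 0 and 5 below, with a median of 0.04. PDSS1, which builds the side chain of ubiquinone, differed by 0.60 (SE 0.23) and ERG28, a scaffold of sterol enzymes, by -0.17 (SE 0.11). Of the 8 measured among 9 genes of SREBP cleavage and turnover in the endoplasmic reticulum, 5 were above 0 and 3 below (median 0.02). MBTPS1, the protease of the first SREBP cut, differed by -0.23 (SE 0.15) and PAQR3, a Golgi anchor of SCAP, by 0.30 (SE 0.22).

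Sterol uptake, storage and efflux was represented by 15 of 18 listed genes, 7 above 0 and 8 below (median -0.01). ABCG1, which exports cholesterol, measured 5.53, 6.97 and 4.74 in SP and 7.48, 7.34 and 7.43 in non-SP samples, without overlap. The SP samples varied widely, and the difference of -1.67 (SE 0.52) did not pass (limma adjusted p = 0.612). MYLIP, a ubiquitin ligase for lipoprotein receptors, differed by 0.43 (SE 0.21). Of 22 measured among 26 listed genes of further fatty acid synthesis, elongation and activation, 10 were above 0 and 12 below (median -0.05), with ELOVL2 at -0.26 (SE 0.13) and ELOVL3 at -0.52 (SE 0.32).

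Fatty acid oxidation, the opposing pathway, was represented by 16 of 18 listed genes, of which 3 were above 0 and 13 below, with a median of -0.20. The groups did not overlap in 4 of the 16, all lower in SP samples (background 7.1%). ETFDH, which passes electrons from fatty acid oxidation to ubiquinone, measured 7.87, 7.71 and 7.67 in SP and 8.34, 8.30 and 8.30 in non-SP samples. The difference was -0.56 (SE 0.11, limma adjusted p = 0.389). HADHA, a subunit of the mitochondrial trifunctional protein, differed by -0.43 (SE 0.12). In sorted bulk samples, a change in the share of cells that express a gene and a change in RNA per cell cannot be told apart, for these genes and for all those above.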

How the data were processed

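RNA from 3 SP and 3 non-SP samples was amplified from picogram amounts and labelled with biotin, per the labels' protocols. The authors deposited 1 log2 value per probe set and array, and the submitters' processing notes name R 2.8.1, affy and RMA. RMA gives all arrays 1 shared distribution, so a global change in RNA cannot be seen, and it compresses small differences near background. Precision is limited by the number of arrays.

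Of 54675 probe sets, 62 controls were left out and 41091 carried 1 gene symbol in the platform annotation. Each of 19775 genes was represented by its brightest probe set (mean of all 6 samples), with no filter. R 4.3.3 and limma 3.58.1 (lmFit, eBayes, no block) gave the differences, with two-sided tests adjusted over all genes. The fit was also run on simulated data with independent noise and no array sets. That run, whose outcome is not given here, does not show how the fit behaves with the array sets. Negative controls are the 3 TrpnX probe sets. Tables were handled in Python 3.11.15 with pandas 2.3.3. Motifs were searched on both strands in the first listed RefSeq promoter of each gene (29 members had one).

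The members and lists were chosen with earlier results of these data known. Values in every sample are given for genes past the threshold, genes whose groups do not overlap, the highest and lowest of each role, and SREBF1, SREBF2, SCAP, INSIG1, HMGCS1, SQLE, FASN and SCD. ABCB1, ABCG2 and marker genes were named as checks, and up to 2 genes by p in each other list. The fit was repeated with blocks for replicate number or array set, with averaged or single probe sets, without dim genes, after cyclic loess or median centring, with an intensity trend, array weights or an ACTB covariate, and without each sample. The within-set differences were added after seeing the data.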

Additional observations from a re-analysis of the deposited data

How the results depend on the processing

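None of the 30 genes was called in any of the 16 other fits, and STARD4 came closest, with a limma adjusted p from 0.333 to 1.00 over these fits. The direction was the same in all of these fits that held the gene for 15 genes, but for 13 of these the size moved by over 1.5 times in at least 1 fit; STARD4 (0.48 to 0.83) and SCD (-0.28 to -0.18) were the exceptions. EBP ranged from -0.48 to -0.24, DHCR7 from -0.30 to -0.059, FADS2 from -0.25 to -0.065, NSDHL from -0.58 to -0.021, SREBF2 from -0.45 to -0.030, MVD from -0.45 to -0.070, TM7SF2 from -0.74 to -0.26 and SCAP from 0.041 to 0.44. The upper ends for EBP, DHCR7 and FADS2 came with the mean of probe sets. Over all genes limma called 1 gene, against 3 with the replicate block, 3 with the ACTB covariate, 5 with the array set as a block, 12 with array weights, 0 with the mean of probe sets, 0 among genes above the median level and 1 to 2 with 1 sample left out. MVD and TM7SF2 were too dim for the fit above the median level. Whether the replicate numbers pair the samples was not settled. Deviations of the same number correlated at 0.45, 0.38 and -0.21, and those of different numbers at -0.57 to 0.40. The replicate block lowered some SEs (TM7SF2 from 0.30 to 0.14) and raised others (MVK from 0.10 to 0.12). It changed no call of these 30 genes. The median of the SREBP regulation genes, 0.21, was 0.12 with the array set as a block, 0.043 within array set B and 0.023 to 0.33 with 1 sample left out. The cause was not tested.

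The sign turned for small differences. With the array set as a block FDPS differed by 0.024, MSMO1 by -0.11, SC5D by -0.21, ACSS2 by -0.054 and ELOVL5 by -0.12. With the ACTB covariate MSMO1 differed by -0.022, SC5D by -0.044 and ELOVL5 by -0.020. With array weights HMGCS1 differed by -0.057, PMVK by 0.0077, LSS by 0.13 and ACLY by -0.078. With the mean of probe sets HMGCS1 differed by -0.058, MVK by 0.071, SQLE by -0.19, LSS by 0.21, SC5D by -0.027 and FASN by 0.0038. With cyclic loess SC5D differed by -0.0004, and with median centring PMVK by 0.024. With 1 sample left out ACACA ranged from -0.21 to 0.030, ACLY from -0.11 to 0.11, ACSS2 from -0.15 to 0.10, ELOVL5 from -0.19 to 0.26, FDPS from -0.16 to 0.031, HMGCS1 from -0.10 to 0.25 and IDI1 from -0.10 to 0.0215. LSS then ranged from -0.41 to 0.24, MSMO1 from -0.083 to 0.19, PMVK from -0.0425 to 0.0067, SC5D from -0.30 to 0.28, SQLE from -0.0215 to 0.17 and SREBF1 from -0.25 to 0.018.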
